A study of Homo sapiens with 9 samples.

Results

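Baseline expression was described in the 3 control arrays (Ctrl-sh, replicates 1, 2 and 3) of a series of 9 arrays. The control cells were labelled Daudi, a B-lymphoblast line grown from a Burkitt lymphoma, infected with a control short hairpin RNA and selected with puromycin for 48 h. The other arrays, 3 with a hairpin against SLC7A5 (Slc7a5-sh) and 3 with a hairpin against MYC (C-Myc-sh), came from the same line under the same selection and are used here only for comparison. All 9 arrays therefore share viral infection and drug selection, and no uninfected cells were analysed here. The labels number the replicates as biological but do not say whether they came from separate infections, so the spread given below is that between these samples and may be technical. Genes were ranked by their mean control signal, with the probe set of the highest control mean standing for a gene, which gave 19775 genes from probe sets carrying exactly 1 symbol.

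Burkitt lymphoma derives from germinal centre B cells, in which antigen-stimulated cells cycle between a dark zone of division and a light zone of selection. A translocation places MYC beside an immunoglobulin enhancer, and MYC, paired with MAX, drives ribosome production, nucleotide synthesis, glycolysis and nutrient uptake by binding E-boxes. SLC7A5 pairs with SLC3A2 to exchange glutamine for leucine and other large neutral amino acids, and leucine permits mTORC1, a kinase complex at the lysosome, to stimulate protein synthesis.

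The 4 genes taken as markers of these cells (the label genes) were high in every control array. They mark B cells and MYC-driven growth, and do not tell Daudi from other B-cell lines of that kind. MYC gave log2 signals of 13.16, 13.26 and 13.24 (mean 13.22 ± 0.05, SD, n = 3), at percentile 97.4 of the 19775 genes. MS4A1, the B-cell surface protein CD20, gave 12.25, 12.13 and 12.25, and SLC7A5 gave 12.06, 12.35 and 12.21. CD79A, a signalling chain of the B-cell receptor, gave 11.12, 11.19 and 11.32, at percentile 86.1. The signal of a probe set depends on its probes as well as on its transcript, so ranks and percentiles place genes on the array and do not order amounts of RNA. In a bulk sample, fewer cells with a transcript and less of it per cell cannot be told apart.

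A level for background was set from genes of other tissues, such as those of liver, pancreas, muscle, eye and brain: the 90th percentile of their control means, which was 6.54 (93.3 on the linear scale) over 79 measured genes. A gene was taken as above background where all 3 control arrays exceeded that level. This held for 9556 of 19775 genes (48.3%), while 8476 genes lay above it in no array and 1743 in 1 or 2 arrays. The reference genes had a median of 4.68, and 7 of the 79 were above background, led by KRT10 at 11.88 and MBP at 9.18. Near the level, BCL2A1, EGR1 and PRF1 lay just inside with means of 7.24, 6.88 and 6.91, and MYCL, FCRL1 and CD4 lay just outside with means of 7.03, 6.94 and 6.66, since 1 of their arrays fell below it.

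**Figure D1:**
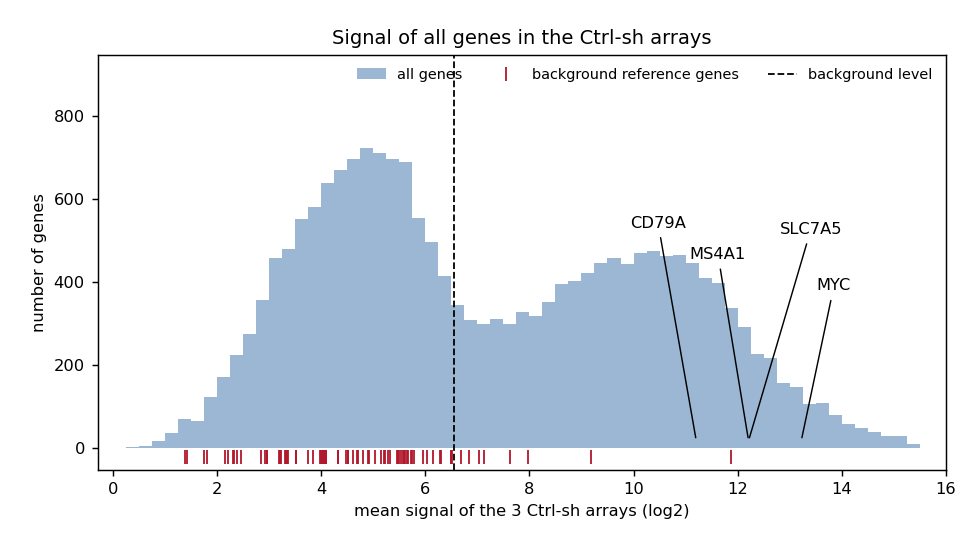
Number of genes by mean log2 signal of the 3 Ctrl-sh arrays (bars), with the background level (dashed line), the background reference genes (red ticks) and the 4 label genes. Genes lie on both sides of the level of 6.54, and the 4 label genes lie between 11.21 and 13.22.

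How well a level was measured depended on its height. The median SD between the control arrays was 0.050 for the 1529 genes with means of 12 or more, 0.149 for genes between 8 and 10, 0.350 between 6 and 8 and 0.982 between 4 and 6. Among genes between 4 and 6, 78.3% had control arrays at least 1 log2 unit apart, against 0.743% of genes between 8 and 10. Pairs of control arrays correlated at 0.916 to 0.925 over all genes and at 0.990 to 0.991 over genes above background, across genes that are not independent replicates. Of the 1000 highest genes of each array, 951 were shared by all 3. Levels below background are given to show where a gene lay, and their order is not read.

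**Figure D2:**
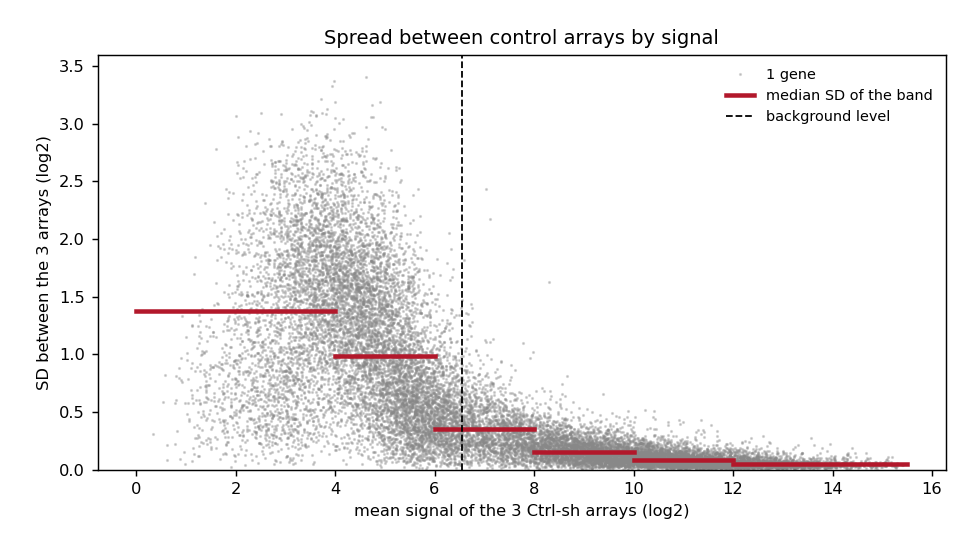
SD between the 3 Ctrl-sh arrays against the mean log2 signal, 1 point a gene, with the median SD of each band of signal (red) and the background level (dashed). The median SD falls from 1.38 below a signal of 4 to 0.050 above 12.

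The 40 highest genes had means from 14.94 to 15.42 and SDs from 0.018 to 0.108. Of these, 25 encoded cytosolic ribosomal proteins, among them RPS23 at 15.35, 15.32 and 15.24. The others included the elongation factor EEF1A1, the mitochondrially encoded respiratory subunits COX2 and ND4, the chaperones HSPD1 and HSP90AA1, the nucleolar protein NPM1, and the glycolytic enzymes LDHA and ENO1. One gene of this top group, IGLC1, is specific to B cells. For 36 of the 40 the probe set was of a kind that can also bind related transcripts (name ending in _s_at or _x_at), and such signals may sum over gene copies and pseudogenes.

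The immunoglobulin signals were highest for mu heavy chains and lambda light chains. Of 9 probe sets for the lambda constant genes 2 were above background, with 15.08, 15.07 and 14.97 for IGLC1 and a mean of 14.76 for the other, and a lambda variable probe set averaged 14.69. IGHM, the heavy chain of IgM, gave 13.88, 13.86 and 13.80, with 4 of its 5 probe sets above background. The highest delta heavy chain probe set averaged 9.78, and none of the 5 gamma and 2 alpha heavy chain probe sets was above background. Of 20 probe sets for the kappa light chain, 3 were above background, their highest mean was 8.79 and their median 5.55, and the highest value of any kappa probe set in any of the 9 arrays was 9.22. Daudi is commonly described as an IgM line with kappa light chains, so these light-chain signals went against that description in all 9 arrays. The immunoglobulin probe sets were picked out after their values were seen, and the cause of this difference was not tested.

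Genes of the B-cell receptor and its coreceptors were largely present, 19 of 22 measured being above background, with a median of 9.95. CD79B, the partner of CD79A, gave 13.01, 13.05 and 13.09, and CD81, a tetraspanin of the B-cell surface, 13.57, 13.54 and 13.52. CD24, a surface glycoprotein, averaged 13.77, the highest of the list, and CD27, a marker of antigen-experienced B cells, 12.46. CD22, an inhibitory lectin, averaged 9.80, and CR2, the complement receptor that Epstein-Barr virus uses to enter B cells, 9.58. VPREB1 and IGLL1, which form the surrogate light chain of B-cell precursors, were above background, with 7.84, 7.94 and 8.24 for VPREB1 and a mean of 7.92 for IGLL1. VPREB3, a related precursor protein, averaged 12.83. FCRL1, FCRL3 and LILRB1 were not above background. Promoters of this group were searched for the octamer ATGCAAAT on both strands, the site of the B-cell factor POU2F2 and its coactivator POU2AF1, in 300 bases (250 before to 50 after the start) from RefSeq, build GRCh38.p14. Of 18 promoters matched, 2 held it (11.1%), against 1.51% of all 15381. These shares were not matched for G and C, whose median was 49.2% in the group and 63% over all. The octamer was in 1 of 25 promoters of receptor signalling and 0 of 20 of B-cell transcription factors. The germinal centre programme had it in 2 of 30. The 2 promoters of this group are shown because octamers are typical of B-cell promoters. The 250 bases before the start, 5′ to 3′ on the gene's strand with the octamer in capitals as it reads on that strand, lie at chr1:110870960-110871209 (plus strand) for CD53, a tetraspanin of white blood cells, and at chr22:23754426-23754675 (minus strand) for VPREB3.
CD53: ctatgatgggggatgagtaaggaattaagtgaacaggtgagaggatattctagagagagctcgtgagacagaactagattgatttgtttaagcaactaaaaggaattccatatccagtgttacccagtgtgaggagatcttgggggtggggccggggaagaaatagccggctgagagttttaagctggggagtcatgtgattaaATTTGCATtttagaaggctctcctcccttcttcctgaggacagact
VPREB3: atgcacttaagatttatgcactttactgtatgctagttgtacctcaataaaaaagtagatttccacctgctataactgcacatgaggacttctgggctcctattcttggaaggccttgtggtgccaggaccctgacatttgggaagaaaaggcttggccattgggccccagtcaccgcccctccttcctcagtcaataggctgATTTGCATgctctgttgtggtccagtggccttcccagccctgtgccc
The octamer begins 46 bases before the start of CD53 and 47 bases before that of VPREB3. A match describes letters and is no evidence of binding.

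All 27 measured genes of B-cell receptor signalling were above background, with means from 7.62 for the phosphatase PTPN6 to 12.75 for the phosphatase PTPRC (CD45). The kinases that relay the signal gave 11.72, 11.77 and 11.62 for SYK, 11.27, 11.30 and 11.41 for LYN, and 10.70, 10.47 and 10.57 for BTK. The adaptor BLNK averaged 11.97, the phospholipase PLCG2 11.61 and PRKCB, the kinase upstream of NF-kB, 11.79. MALT1 and BCL10, which act in NF-kB activation, averaged 10.82 and 11.15.

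Of 24 B-cell transcription factors 22 were above background, at a median of 12.16, and 16 lay among the 1977 highest genes (means of at least 11.68). PAX5, which fixes B-cell identity, gave 13.79, 13.39 and 13.70, and its partner EBF1 gave 12.03, 11.98 and 11.95. The other PAX5 probe set gave 6.61, 6.63 and 6.60, just over the background level. POU2AF1 averaged 14.18 and ETS1 14.23, the highest of the list. TCF3, the E-protein that drives germinal centre and Burkitt programmes, averaged 13.07, and ID3, an inhibitor of E-proteins that is often mutated in Burkitt lymphoma, 13.32. Only SPI1 and KLF2 were not above background, with 6.17, 7.01 and 5.24 for SPI1 and a mean of 5.12 for KLF2. POU2F2, the octamer factor, averaged 10.30, whereas POU2F1 was not measured.

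The germinal centre programme was present in 29 of 32 measured genes, at a median of 11.69. BCL6, its master repressor, gave 13.23, 13.50 and 13.38, and MME, the surface marker CD10, gave 12.65, 12.59 and 12.60. TCL1A, an AKT coactivator, averaged 14.54, the highest of the list, and GNA13, a G protein that holds cells in the germinal centre, gave 14.03, 13.98 and 13.99. The confinement receptors S1PR2 and P2RY8, which signal through GNA13, averaged 9.24 and 10.62. UNG, which removes the uracils made during antibody diversification, averaged 11.59. Not above background were CXCR5, the follicle homing receptor, with 3.53, 4.36 and 2.72, LMO2, with a mean of 5.14, and SUGCT. CXCR5 is a usual gene of germinal centre B cells, and LMO2 is one that is usually low in Burkitt lymphoma.

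All 11 measured dark zone genes were above background at a median of 12.73, from POLH at 9.67 to HMGB2 at 14.80. CXCR4, the receptor that positions cells in the dark zone, gave 13.67, 13.81 and 13.56, and CCND3, the cyclin of dark zone divisions, 12.76, 12.79 and 12.65. Of 38 light zone and activated B-cell genes, 22 were above background (57.9%, against 48.3% of all genes), at a median of 7.39 over all 38. The difference between the zones was not tested. Of these, REL averaged 12.03, CD83 10.39, CD40 9.53 and CD86 8.60, whereas CCR7, with 1.85, 1.29 and 0.90, CCL22, EBI3, CD44 and IRF4 were not above background. The dark zone list holds cell cycle genes, so its level is not separate from that of division. Plasma cell genes were split, with 13 of 18 measured above background (72.2%, against 48.3% of all genes). The secretory genes SSR4, FKBP11 and PRDX4 averaged 12.85 to 12.95 and JCHAIN, which links IgM into pentamers, gave 14.67, 14.67 and 14.69. The factors that make a plasma cell, IRF4 and PRDM1, and its surface marker SDC1 (CD138), were not above background, with means of 5.95, 5.63 and 5.05. Other members of the list were above it, with means of 10.77 for XBP1, 11.40 for CD38 and 8.22 for TNFRSF17.

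In the MYC and MAX network 21 of 25 measured genes were above background. MAX, the partner that MYC needs to bind DNA, gave 11.55, 11.57 and 11.50. Of the factors that compete for MAX, MXI1 averaged 10.98, MGA 9.31, MNT 9.26 and MXD1 8.92. The cofactors RUVBL1, RUVBL2 and TRRAP, which join MYC to histone acetylation, averaged 12.07, 12.91 and 11.48. MYCN, with 6.35, 5.56 and 5.63, was not above background, nor were PVT1, the non-coding neighbour of MYC, and MLXIPL. MYCL was above the level in 2 of 3 arrays. MYC was the highest member of the list.

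Growth genes known to be induced by MYC stood high. Of 77 measured, 75 were above background and 57 lay among the 1977 highest genes, at a median of 12.81 against 6.65 for all genes. ODC1, the first enzyme of polyamine synthesis, gave 14.75, 14.77 and 14.51, and NCL, a nucleolar protein of ribosome assembly, 14.52, 14.48 and 14.45. PAICS, a purine enzyme, averaged 14.05, BCAT1, the branched-chain aminotransferase, 14.25, and MTHFD2, of mitochondrial folate metabolism, 14.05. TERT, the telomerase catalytic subunit, was lower on the array, with 7.36, 7.80 and 8.05. CCND2 and SHMT1 were not above background, with means of 5.91 and 5.50, while SHMT2, the mitochondrial form, averaged 13.25. The E-box CACGTG, which reads alike on both strands, was found in 25 of 65 matched promoters of the list (38.5%). The share was 8.90% over all promoters, 10.7% over promoters with 60% to 70% G and C, 10.9% over genes above background and 6.75% over genes not above. Over the other lists it ran from 0% to 22.2%, the highest being genes repressed by MYC (4 of 18). Leucine sensing and mTORC1 genes (6 of 28) and plasma cell genes (3 of 14) each had 21.4%. The MYC-induced list was written from knowledge of MYC targets, some of them known through their E-boxes, and with earlier results of these data known. Its share is therefore not independent of the motif, and its level is a description. The promoters of the highest 3 members with an E-box are shown with the site in capitals, for HSPD1 at chr2:197500275-197500524 (minus strand), LDHA at chr11:18394313-18394562 (plus strand) and RAN at chr12:130871816-130872065 (plus strand).
HSPD1: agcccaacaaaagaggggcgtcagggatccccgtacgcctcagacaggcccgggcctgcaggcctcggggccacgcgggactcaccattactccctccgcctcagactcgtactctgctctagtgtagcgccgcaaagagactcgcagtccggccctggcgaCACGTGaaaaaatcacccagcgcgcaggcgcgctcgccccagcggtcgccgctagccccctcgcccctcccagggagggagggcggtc
LDHA: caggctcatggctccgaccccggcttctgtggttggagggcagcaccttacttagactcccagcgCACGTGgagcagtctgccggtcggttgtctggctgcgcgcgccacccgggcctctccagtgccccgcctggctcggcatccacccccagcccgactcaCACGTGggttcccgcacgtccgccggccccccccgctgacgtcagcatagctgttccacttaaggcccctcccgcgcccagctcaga
RAN: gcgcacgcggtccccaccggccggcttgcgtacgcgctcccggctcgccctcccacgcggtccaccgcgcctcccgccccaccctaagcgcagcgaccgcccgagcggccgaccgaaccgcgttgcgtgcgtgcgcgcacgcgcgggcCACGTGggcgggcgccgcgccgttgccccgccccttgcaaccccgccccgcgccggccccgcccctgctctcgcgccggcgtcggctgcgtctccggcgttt
LDHA holds 2 sites, which begin 185 and 87 bases before its start, and those of HSPD1 and RAN begin 88 and 102 bases before theirs.

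All 34 measured proliferation genes were above background, at a median of 12.33. TYMS, of thymidylate synthesis, gave 14.44, 14.37 and 14.37, PCNA 14.04, 14.07 and 14.07, and MKI67, the Ki-67 antigen, 11.58, 11.50 and 11.66. CDKN2A, which encodes the inhibitors p16 and ARF, averaged 12.11, and RB1 9.16. The lowest was the mitotic kinase PLK1, at 8.74. Genes known to be repressed by MYC were above background in 17 of 25 cases at a median of 9.16. CDKN1A and CDKN1B averaged 9.97 and 9.07, and CCND1, CDKN2B, NDRG1 and CDKN1C were not above background. The highest of that list were HLA-C and HLA-B. Of the D-type cyclins CCND3 was above background, while CCND1 gave 3.11, 1.65 and 2.98.

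Of 46 plasma membrane amino acid transporters measured, 21 were above background (45.7%), near the 48.3% of all genes, and the median of all 46 was 5.94. The system L members above background, which carry large neutral amino acids, were SLC7A5, SLC43A1 at 10.08 and SLC43A2 at 7.33. SLC7A8, another member of system L, gave 5.79, 5.34 and 6.70 and was not above background. SLC3A2, the heavy chain of the SLC7A5 exchanger, gave 10.58, 10.37 and 10.56. SLC38A1 and SLC38A2, which take up glutamine and other small neutral amino acids, gave 13.24, 13.21 and 13.24, and 12.13, 12.19 and 12.25. SLC1A5, another glutamine transporter, averaged 10.39, and SLC38A5 9.39. Of the cationic carriers SLC7A1 gave 12.92, 12.94 and 12.87 and SLC7A3 averaged 9.53, whereas SLC7A2 was not above background. SLC7A11, the cystine importer, averaged 8.91, and the y+L exchangers SLC7A6 and SLC7A7 averaged 11.37 and 8.86. Several members of epithelium and brain, such as SLC6A19, SLC3A1, SLC7A9, SLC6A14 and SLC1A2, were not above background. Not all such carriers were low, since SLC1A1 and SLC1A3 were above background with means of 10.68 and 8.60. The control arrays lay within 0.36 log2 units of each other for each transporter named here as above background.

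**Figure D3:**
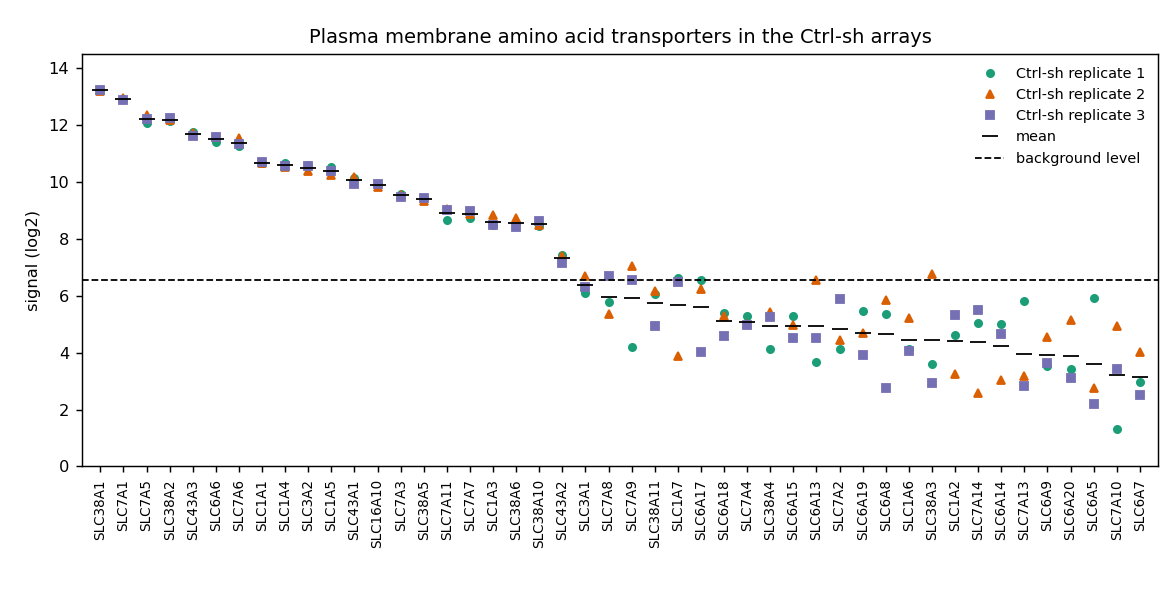
Log2 signal of 46 plasma membrane amino acid transporters in the 3 Ctrl-sh arrays, ordered by mean (bars), with the background level (dashed). The 21 genes from SLC38A1 to SLC43A2 lie above the level in every array, and the spread between arrays widens below it.

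Of 35 transporter promoters matched, 4 held the E-box (11.4%), near the 8.90% of all promoters. They were those of SLC7A5, SLC43A1, SLC38A5 and SLC1A7, of which SLC1A7 was not above background. The 2 system L promoters are printed because these carriers bring leucine into the cell. They lie at chr16:87869508-87869757 (minus strand) for SLC7A5 and at chr11:57515703-57515952 (minus strand) for SLC43A1, with the E-box in capitals.
SLC7A5: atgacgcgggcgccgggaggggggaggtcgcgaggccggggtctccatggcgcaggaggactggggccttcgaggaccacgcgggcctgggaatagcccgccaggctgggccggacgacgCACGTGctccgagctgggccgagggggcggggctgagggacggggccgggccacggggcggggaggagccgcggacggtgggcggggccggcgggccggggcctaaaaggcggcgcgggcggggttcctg
SLC43A1: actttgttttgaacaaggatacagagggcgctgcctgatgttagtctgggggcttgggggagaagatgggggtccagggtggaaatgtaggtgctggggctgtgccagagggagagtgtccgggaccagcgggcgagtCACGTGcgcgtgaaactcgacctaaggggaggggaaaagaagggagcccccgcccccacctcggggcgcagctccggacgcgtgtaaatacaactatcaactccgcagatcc
The sites begin 130 and 112 bases before the start. The core of the amino acid response element, TGATGCAAT on either strand, which ATF4 binds and which shares its letters ATGCAA with the octamer, was in 0 of the 35 windows and in 0.202% of all.

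Inside the cell, 16 of 23 transporters of lysosomes, mitochondria and vesicles were above background, from SLC25A40 at 11.60 down. SLC38A9, which reports lysosomal arginine to mTORC1, gave 8.60, 8.49 and 8.29, and SLC36A1 averaged 8.91. SLC25A44, the mitochondrial carrier of branched-chain amino acids, averaged 10.78, and the vesicular glutamate carriers SLC17A6, SLC17A7 and SLC17A8 were not above background. Of 36 genes of leucine sensing and mTORC1, 35 were above background at a median of 9.79. RHEB, the activator of mTORC1, gave 13.89, 14.06 and 13.96, and LARS1, the leucyl-tRNA synthetase, 12.77, 12.77 and 12.81. SESN2, a leucine sensor, averaged 8.83, MTOR 9.14, RPTOR 7.64, and EIF4EBP1, a target of the kinase, 11.34. CASTOR1, the arginine sensor, was the member not above background, with 6.10, 6.33 and 6.16, while CASTOR2 averaged 9.35.

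Antigen presentation genes were present, 19 of 21 for MHC class I and 17 of 17 for class II. B2M gave 14.84, 14.83 and 14.77, and HLA-B and HLA-C averaged 13.72 and 13.97. Daudi is known for a mutation in B2M that keeps class I from the cell surface, and a transcript level does not bear on that protein. HLA-DRA gave 13.41, 13.38 and 13.38 and the class II activator CIITA 7.59, 7.19 and 7.39. Because HLA genes are alike and variable, their probe sets may bind several of them. In the BCL2 family 13 of 16 genes were above background. The survival gene MCL1 averaged 12.86, the death genes PMAIP1 and BIK 12.68 and 11.95, and BCL2 8.83. BOK, BCL2L2 and BCL2L10 were not above background, nor were TAPBPL and CD1C of the class I list.

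Most markers of other blood and tissue cells were not above background. None of 23 myeloid markers was above it, the highest mean being 6.56 for CSF3R. Of 28 T and NK cell markers 4 were above, namely LCK with 9.48, 9.74 and 9.43, IL7R with 9.49, 9.38 and 9.23, CD247 with a mean of 8.50, and PRF1. The defining T-cell genes CD3D, CD3E, CD3G, CD2 and CD8A were not, with means of 5.38, 5.97, 4.74, 4.63 and 2.07. Of 13 erythroid and platelet markers EPOR, GATA2 and HBB were above at 8.16, 7.38 and 7.12, and of 19 stromal and endothelial markers PECAM1 at 7.83 and COL1A1 at 8.51. COL1A1 rested on 1 of its 5 probe sets, the other 4 having means from 2.77 to 4.76.

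**Figure D4:**
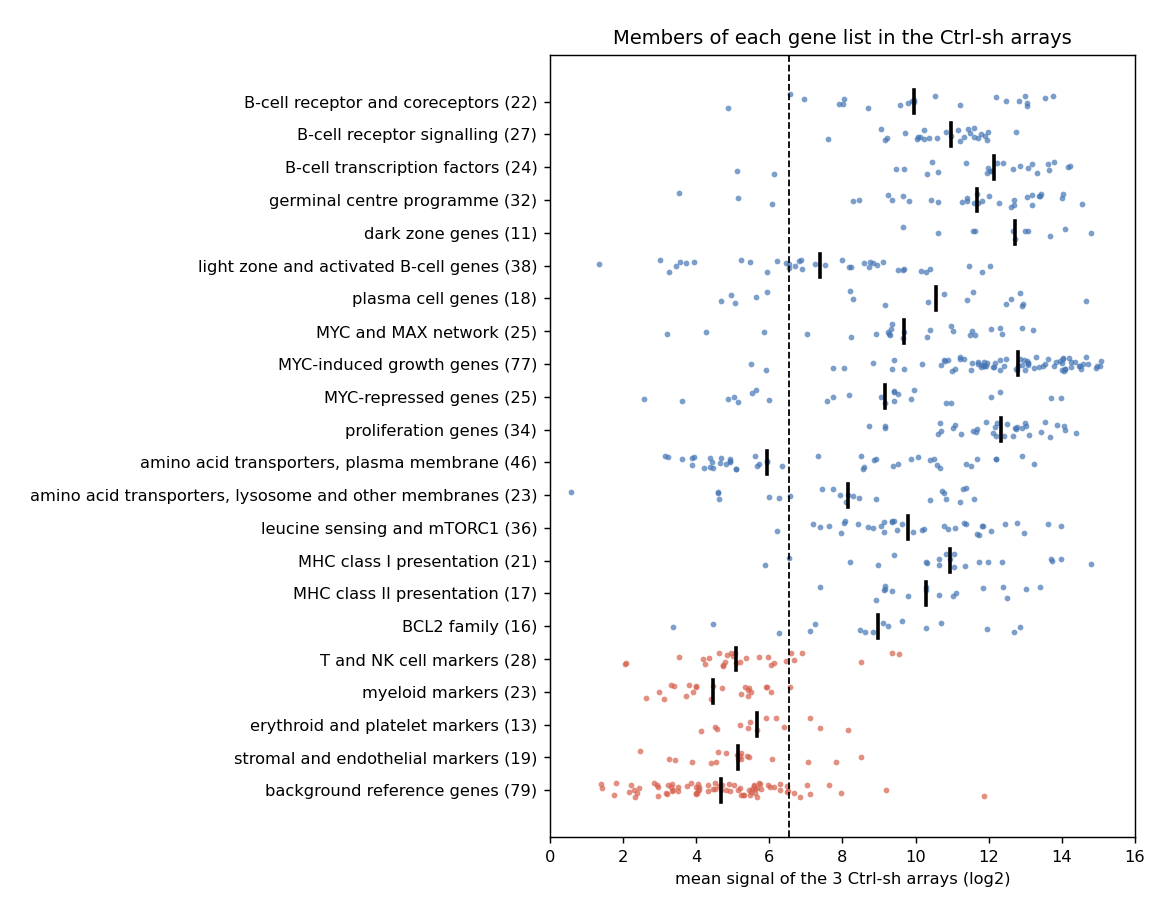
Mean log2 signal in the 3 Ctrl-sh arrays of each measured member of 22 gene lists (points; number measured in brackets), with the list median (black bar) and the background level (dashed). Among the lists in blue, those of the B-cell receptor, its signalling, B-cell transcription factors, germinal centre, dark zone, MYC-induced and proliferation genes have medians from 9.95 to 12.81. The other blue lists have medians from 5.94 (plasma membrane transporters, below the background level) to 10.95 (MHC class I). The lists of other cell types and the reference genes (red) have medians from 4.46 to 5.67.

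The baseline genes were then followed into the knockdown arrays with limma over 11250 genes, adjusted by Benjamini-Hochberg over all of them. MYC gave 12.12, 12.14 and 12.13 in C-Myc-sh (change -1.09 ± 0.05, SE, adjusted p = 4.7e-10) and 12.90, 12.79 and 12.93 in Slc7a5-sh. SLC7A5 gave 11.86, 11.84 and 11.95 in Slc7a5-sh (change -0.32 ± 0.07, SE, adjusted p = 0.00414) and 11.79, 11.78 and 11.84 in C-Myc-sh. Neither target gene's knockdown arrays overlapped its control arrays, whose lowest values were 13.16 for MYC and 12.06 for SLC7A5. The same held for MYC in Slc7a5-sh and for SLC7A5 in C-Myc-sh, so each gene was lower in both knockdowns. SLC7A5 was about as low in C-Myc-sh as in Slc7a5-sh. Of the B-cell label genes, CD79A averaged 11.11 in Slc7a5-sh and gave 11.28, 11.30 and 11.59 in C-Myc-sh, and its arrays overlapped the control arrays in both. With its probe sets averaged, the change of CD79A in Slc7a5-sh turned from -0.10 to 0.05, and neither passed the test. MS4A1 fell by 0.30 in Slc7a5-sh (adjusted p = 0.00149) and by 0.21 in C-Myc-sh (adjusted p = 0.00467); the latter was -0.11 (adjusted p = 0.107) after quantile normalization. Both comparisons share the control arrays.

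Of the germinal centre genes, 30 of 32 were tested. In Slc7a5-sh 19 were lower and 3 higher (1 higher without Slc7a5-sh replicate 1, and 0 to 1 under 4 other alternatives), where 25.3% of all genes were called, 14.3% higher and 11% lower. In C-Myc-sh 19 were lower and 6 higher, where 54.9% of all genes were called, 28.7% higher and 26.2% lower. The median change of the list was -0.28 and -0.66, and that of all genes 0.03 and 0.04. RGS13, a brake on chemokine signals in germinal centre B cells, went from 11.91, 12.20 and 11.89 to 10.97, 11.06 and 10.97 in Slc7a5-sh and to 9.63, 9.40 and 9.42 in C-Myc-sh. HMCES, a protector of abasic DNA, fell by 0.83 and by 1.82 (adjusted p = 8.6e-07 and 7.65e-12), and TCL1A fell by 1.72 in C-Myc-sh (adjusted p = 1.08e-12). All 11 dark zone genes were lower in C-Myc-sh, and 3 were lower and 1 higher in Slc7a5-sh. Of the 34 proliferation genes, a list that shares cell cycle genes such as CDK1 with the dark zone list, 31 were lower and 2 higher in C-Myc-sh, and 19 were lower and 2 higher in Slc7a5-sh. The part of division in the dark zone values was not tested. When the probe sets of each gene were averaged, 7 of the 11 were lower in C-Myc-sh.

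Of 23 B-cell transcription factors tested, 7 were higher and 12 lower in C-Myc-sh (82.6% called), and of 27 signalling genes 13 were higher and 5 lower (66.7% called). Of all genes 54.9% were called, 28.7% higher and 26.2% lower. PAX5 went from 13.79, 13.39 and 13.70 to 14.24, 14.40 and 14.10 (change 0.62, adjusted p = 7.68e-05), and EBF1 rose by 0.85 (adjusted p = 3.32e-08). In Slc7a5-sh PAX5 went to 13.09, 13.02 and 12.84 (change -0.64, adjusted p = 0.000313), so it lay below all control arrays in one knockdown and above them in the other. These PAX5 values come from its higher probe set only. ID3 went from 13.28, 13.39 and 13.29 to 11.38, 11.43 and 11.62 (change -1.85, adjusted p = 5e-11), and LEF1 and BACH2 fell by 1.83 and 1.20. IKZF1, the Ikaros factor, fell by 0.72 in Slc7a5-sh and by 1.21 in C-Myc-sh. In signalling, PIK3CD, the lymphocyte phosphoinositide kinase, rose by 2.17 (adjusted p = 1.51e-11), while DOK3, an inhibitory adaptor, fell by 3.04 (adjusted p = 4.38e-11). LCK and IL7R, the highest T-cell list members at baseline, fell by 2.20 and 3.42 in C-Myc-sh, IL7R to 6.41, 6.33 and 5.09, below the background level in all 3 arrays.

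**Figure D5:**
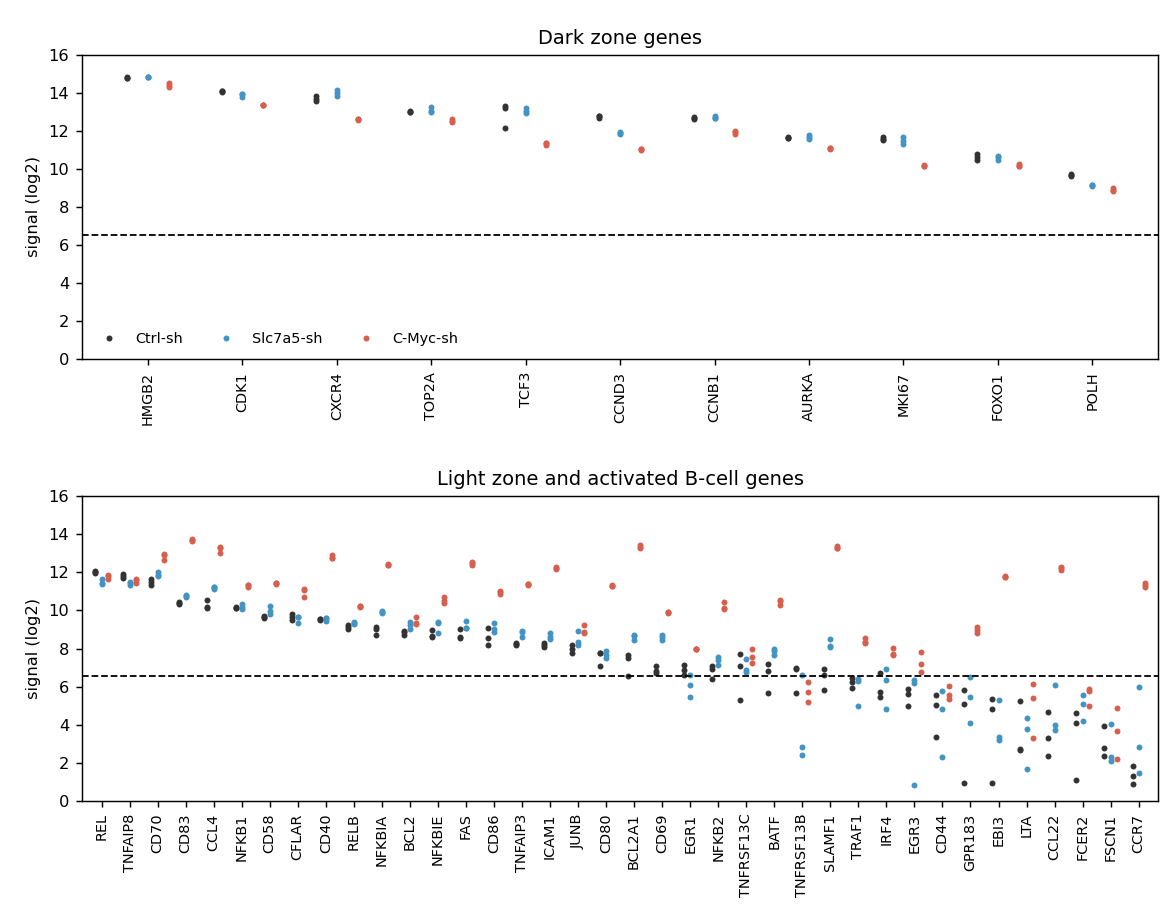
Log2 signal of dark zone genes (upper panel) and of light zone and activated B-cell genes (lower panel) in the 3 arrays of each group, ordered by control mean, with the background level (dashed); each gene is shown by its probe set of the highest mean over the 9 arrays. CXCR4 lies near 13.68 in control and near 12.60 in C-Myc-sh arrays, and CCL22 at 12.13 to 12.26 in C-Myc-sh arrays, where its highest control value is 4.67.

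Of the plasma membrane transporters, 25 of 46 passed the filter on the 9-array mean, which the knockdown arrays enter too, so their counts are a description. In C-Myc-sh 7 of the 25 were higher and 15 lower (88% called), where 28.7% of all genes were higher and 26.2% lower. In Slc7a5-sh 5 were higher and 2 lower (28% called), where 14.3% of all genes were higher and 11% lower. Of those that moved in C-Myc-sh, SLC38A5 went from 9.44, 9.32 and 9.42 to 7.92, 7.15 and 7.54, and SLC7A3, SLC1A3 and SLC16A10, an aromatic amino acid carrier, fell by 1.59, 1.72 and 1.33. SLC38A2 went the other way, from 12.13, 12.19 and 12.25 to 13.40, 13.43 and 13.45, and also rose in Slc7a5-sh by 0.69 (adjusted p = 9.08e-07). Of 36 leucine sensing and mTORC1 genes, 8 were called in Slc7a5-sh (22.2%; 6 higher, 2 lower) and 8 were higher and 12 lower in C-Myc-sh (55.6% called), near the shares of all genes, 25.3% and 54.9%. Among the members called, SESN2 rose by 0.67 and 1.35, and EIF4EBP1 fell by 2.32 in C-Myc-sh, where its arrays gave 8.69, 9.05 and 9.30.

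With the probe set chosen over all 9 arrays, 9541 genes were above background in control and 10234 were not. Of the latter, 294 were above the level in every Slc7a5-sh array and 565 in every C-Myc-sh array. The test called 52 and 259 of these higher. Of the former, 306 and 326 were not above it there, and 24 and 145 of these were called lower. The remaining genes of each count did not pass or were not tested. These counts are descriptions, since the control values chose the genes and many lay near the level. Among genes not above background in control, the heat shock gene HSPA6 went from 5.87, 5.89 and 6.18 to 9.71, 9.92 and 10.25 in Slc7a5-sh. HSPA6 also rose in C-Myc-sh, to 8.18, 8.12 and 8.45. In C-Myc-sh the highest rise was that of IFI44L, to 13.13, 13.18 and 13.26, and IFIT1, IFI27 and USP18 were also among the 8 highest. There EBI3, a cytokine subunit, reached 11.82, 11.75 and 11.78, and SLAMF1, a lymphocyte receptor, 13.27, 13.30 and 13.38 from 6.90, 6.62 and 5.83. SLAMF1 also rose in Slc7a5-sh, to 8.06, 8.14 and 8.50.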

How the data were processed

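Total RNA of the 9 samples was amplified from the 3' end, biotin-labelled and hybridised to 3' expression arrays, per the labels' protocols. The authors deposited log2 signals, 1 per probe set and array; the submitters' processing notes name MAS5, with no version. The 2% trimmed mean was 497 on each array on the linear scale, so arrays were scaled to one target, and total RNA per cell cannot be read. Control medians were 6.05 to 6.14; 110 to 187 control values per array were exactly 0 on the log2 scale. Precision is limited by the 3 arrays a group.

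Of 54613 probe sets, 41091 had exactly 1 symbol, 1801 several and 11721 none; 41037 matched RefSeq by Entrez ID. Annotation can be old. Named genes were the 4 label genes, the highest 40, the 15 most variable of the 1977 highest, list members and, of genes not above background in control, the 8 highest rises in each knockdown; immunoglobulin probe sets were added. Members and lists were chosen with earlier results of these data known. Tests used R 4.3.3 and limma 3.58.1 (3 group means over 9 arrays, eBayes with trend, two-sided) on genes with a 9-array mean of at least 5.77 for the probe set of the highest 9-array mean, which differs from the control choice for 1071 genes; calls needed an adjusted p under 0.05. The test was checked on simulated data. Alternatives changed the background level, probe set, normalization, filter, fit and arrays used.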

Additional observations from a re-analysis of the deposited data

How the results depend on the processing

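Genes above background in control numbered 9490 to 9678 without 1 control array and 8166 to 10745 under the other alternatives, the lowest without probe sets ending in _s_at or _x_at, where 17098 genes were left. The T and NK cell count rose from 4 to 8 at the lower background levels, and 1 myeloid marker, CSF3R, passed there. Called genes in Slc7a5-sh fell from 2843 to 1581 (795 higher, 786 lower) with the mean of all probe sets, and were 2246 to 2528 without 1 array; C-Myc-sh gave 5695 to 5817 without 1 array, against 6178. CD79A in Slc7a5-sh turned to 0.0543 with the mean of all probe sets and 0.207 without _s_at and _x_at probe sets; neither passed. The cause of these shifts was not tested. Deviations of same-numbered arrays correlated at -0.0235 to 0.0179, so no large effect shared by same-numbered arrays was seen. Whether same-numbered samples were prepared together cannot be read from these values. With the replicate block 2775 and 6147 genes were called, and CD79A in C-Myc-sh passed (0.18, adjusted p = 0.0351). CXCR4 in Slc7a5-sh (0.30) missed the threshold without a trend in the variance (adjusted p = 0.0592). Counts of list members called kept within 1.5 times of the main count in 901 of 1020 values; without _s_at and _x_at probe sets fewer members were tested. Signals near background limit what these arrays resolve.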

Other observations

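Even among the 1977 highest genes, some control arrays differed. The most variable was RNF7, a ubiquitin ligase subunit, with 12.49, 12.38 and 12.93 (SD 0.289), followed by the splicing factor SRSF11 with 13.65, 13.78 and 13.25 (SD 0.276). SRSF7, another splicing factor, gave 14.20, 13.88 and 13.78, and RARS1, the arginyl-tRNA synthetase, 12.49, 12.90 and 12.86. Probe sets of 1 gene often disagreed on presence. Of 6515 genes above background with more than 1 probe set, 2940 had all of them above. TCF3 had 8 of 14 above and BCL2 1 of 4.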
